A study of Homo sapiens with 6 samples.

Results

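Loci without a gene name that lay just past the 3′ end of a named gene were described in HEK293 cells, a human embryonic kidney line, with and without heat shock. A locus is a stretch of the genome over which the authors' merged assembly joined overlapping transcripts. Of 117001 loci in the deposited table, 92971 had no gene name. Of these, 92059 were longer than 300 nt, and 91262 of those overlapped no named locus. For 10871 of them the nearest edge of a named gene was its 3′ end, at most 10 kb away. The 5870 members were those in which the authors' pooled value was above 1 FPKM in control or heat shocked cells. FPKM, the unit used throughout, is a fragment number corrected for transcript length and library size. Because the pooled group values chose the members, every difference between the groups given for them is a description, and none is evidence that the loci responded to heat.

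The control group was 3 libraries of HEK293 cells grown at 37°C and left untreated, and the heat shock group was 3 libraries of the same line kept in a 45°C water bath for 30 minutes in a tube. RNA was collected 30 minutes after the heat shock. All 6 libraries were total RNA after depletion of ribosomal RNA. Both groups were treated in triplicate, but the labels do not say whether these were separate passages, so p-values cover the spread between these libraries. No marker of the HEK293 line was checked here. The setting of the library kit for strand is not given in the sources used here, and most assembled transcripts outside genes carried no strand, so a member and an antisense or overlapping transcript cannot be told apart.

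The 3′ end of most messenger RNAs is made by cleavage and polyadenylation at a site that follows a poly(A) signal, most often AATAAA in the DNA of the sense strand. RNA polymerase II goes on past the cleavage site until an exonuclease that degrades the cut-off RNA reaches it and transcription stops. When cleavage or termination fails, RNA is made far into the region beyond the gene, and such readthrough RNA is known to increase in cells under heat and osmotic stress. RNA beyond an annotated 3′ end can also be the distal part of a long 3′ untranslated region (UTR), an unrelated gene, or reads placed in a repeated sequence.

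The sequences shown here are of 2 kinds and are all from the GRCh37 genome, read on the strand of the named gene. For 4 members that a later annotation places in an exon of the named gene itself, the 30 bases around the AATAAA near the downstream end of the member are shown, with the signal in capitals. The UBXN7 site is at chr3:196074539-196074568 on the minus strand, the HSPA4L site at chr4:128762094-128762123 on the plus strand, the CENPC1 site at chr4:68334490-68334519 on the minus strand and the LLPH site at chr12:66510341-66510370 on the minus strand.
UBXN7: tttgatcttggaAATAAAaacaaaaacttt
HSPA4L: gaacaacccaggAATAAAtgaattttaaga
CENPC1: gactgtaccacaAATAAAgatgaagtgaac
LLPH: tttctgatccatgtAATAAAgtacatttgt
The AATAAA began 27, 32, 31 and 16 nt before the downstream end of these members, in the same order.

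For 2 members outside every annotated exon, the last 240 bases are shown. Before any scaling, both were higher in all 3 heat shock libraries than in any control library. Capitals mark AATAAA or its common variant ATTAAA. The UCK2 stretch is chr1:165892201-165892440 on the plus strand and the ZWINT stretch is chr10:58113401-58113640 on the minus strand. The member with the highest values, downstream of XRRA1, is shown by 120 of its bases at chr11:74456789-74456908 on the minus strand, where capitals mark the 54 bases covered by 31-base words of the reading frame of RPS12, a ribosomal protein gene.
UCK2: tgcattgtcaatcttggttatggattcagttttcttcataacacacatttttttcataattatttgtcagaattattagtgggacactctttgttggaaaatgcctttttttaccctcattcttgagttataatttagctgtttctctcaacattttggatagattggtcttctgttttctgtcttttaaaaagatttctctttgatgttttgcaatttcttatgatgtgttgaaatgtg
ZWINT: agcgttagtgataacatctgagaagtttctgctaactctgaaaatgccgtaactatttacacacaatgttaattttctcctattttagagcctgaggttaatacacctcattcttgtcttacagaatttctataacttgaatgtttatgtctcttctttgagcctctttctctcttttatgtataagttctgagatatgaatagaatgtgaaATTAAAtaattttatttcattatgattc
XRRA1: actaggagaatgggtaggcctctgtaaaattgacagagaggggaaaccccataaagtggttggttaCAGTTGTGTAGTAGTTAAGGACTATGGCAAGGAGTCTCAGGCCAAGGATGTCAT
The ZWINT stretch held the ATTAAA variant and no AATAAA, and the UCK2 stretch held neither. Over all members, the last 240 bases held AATAAA on the gene strand in 16.6% and ATTAAA in 10.6%.

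The members lay past 3607 genes. Of these genes, 2145 had 1 member, 903 had 2 and 559 had 3 or more, with at most 16, so 3725 members shared their gene with another one. The median length was 880 nt, with an interquartile range of 591 to 1981 nt and a longest member of 129284 nt. The median distance from the gene was 4080 nt, between 16 and 9997 nt. The median GC content was 47.1%, against 47.8% in 7896 unnamed loci just upstream of genes and 46.9% in 25203 unnamed loci far from genes, both kinds chosen by the same length and level rules. The distance was taken from the edge of the merged locus. Of the 3608 merged gene loci beside a member, 2003 (55.5%) already reached over 100 nt past the annotated end of the gene, by a median of 3006 nt, and RNA within that reach is not part of any member. There were 22 pairs of members with the same coordinates.

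The members were not spread evenly along the 10 kb past the gene. There were 1580 members per kb in the first 0.5 kb, 388 per kb from 0.5 to 1 kb and 318 per kb from 1 to 2 kb. The density then came to 790.5 per kb from 2 to 4 kb and went down with distance to 394 per kb from 8 to 10 kb. Upstream loci were denser still in the first 0.5 kb, at 3916 per kb. The 790 members closest to the gene were the longest, with a median length of 3008 nt, and the most GC-rich, at 50.2%. From 2 to 4 kb the median length was 782 nt and the median GC content 45.9%.

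**Figure D1:**
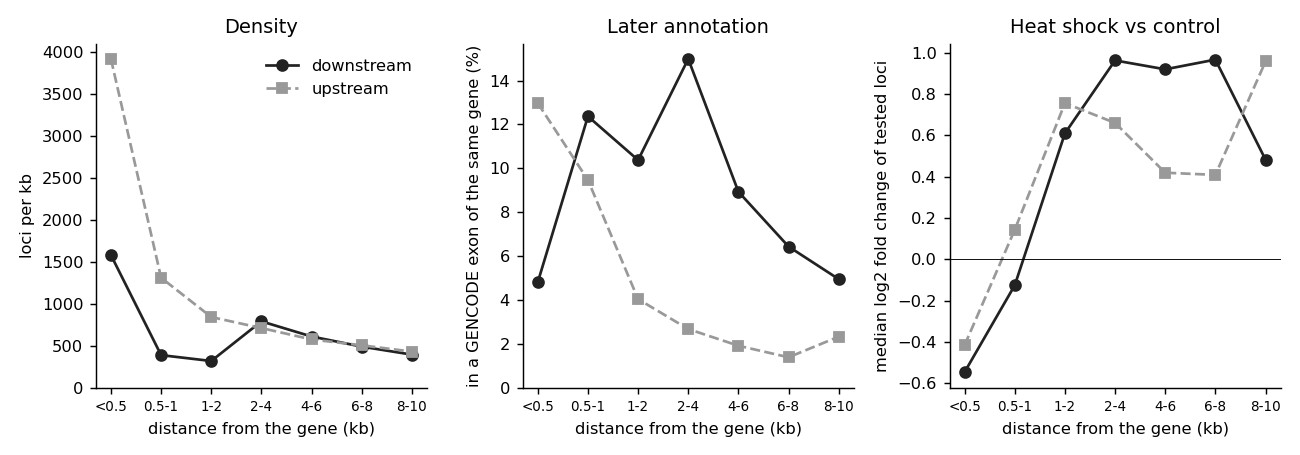
Unnamed loci downstream (solid) and upstream (dashed) of genes by distance from the gene in kb, as loci per kb (left), the percentage in a GENCODE exon of the same gene (middle) and the median log2 fold change of the tested loci on the log2(FPKM + 1) scale (right). The downstream loci were densest in the first 0.5 kb, and their share in an exon of the same gene was highest, at 15.0%, from 2 to 4 kb.

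The pooled values gave 3071 members above 1 FPKM in control cells only, 886 in heat shocked cells only and 1913 in both. The median pooled value was 1.20 FPKM in control and 0.953 FPKM in heat shock. Just inside the limit lay members past SUDS3, SMTNL2 and FPR1, with pooled control values of 1.00012, 1.00027 and 1.00037 FPKM. Just outside it lay loci past SIRPA, BCYRN1 and HDAC8, at 0.999982, 0.999928 and 0.999812 FPKM in the pooled control. At the limit of distance, members past SRGAP2D, ZNF589 and AGO3 lay 9997, 9996 and 9994 nt away, and loci past SNAR-E, PRKCD and ADCK1 lay 10001, 10003 and 10006 nt away and were left out.

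Each library's own assembly gave a value for a member only where Cufflinks had built a transcript over it. Such a member is called listed, and a member with no transcript is listed at 0. The numbers of members listed were 3255, 3474 and 1145 in control libraries 1, 2 and 3, and 792, 979 and 2546 in heat shock libraries 1, 2 and 3. Control 1, control 2 and heat shock 3 thus stood apart from the other libraries, and they cut across the groups. The same 3 libraries held 141632, 194489 and 151889 single-exon transcripts without strand over the whole genome, and the other 3 held 17304 to 45600. Of the members, 3624 (61.7%) were listed only in 1 or more of these 3 libraries, and 749 were listed in all 3 of them and nowhere else.

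The members listed in the remaining libraries were fewer. In all, 106 members were listed in heat shock 1 and 2 and in no other library. Their median GC content was 35.2%, their median length 518 nt, and 43 of them (40.6%) lay in an exon of the named gene in the later annotation. There were 4 members listed in all 3 heat shock libraries and in no control, and 37 listed in all 3 controls and in no heat shock library. In all 6 libraries 218 members were listed, and 431 were listed in none, although the pooled value of the latter was above 1 FPKM. The part of the library differences in these counts was not tested.

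**Figure D2:**
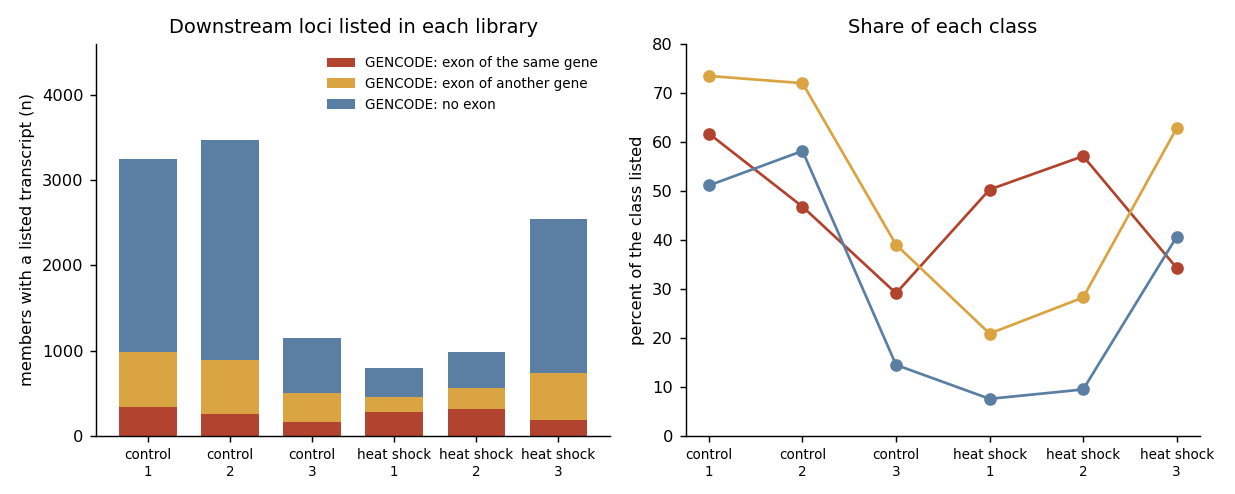
Members with a listed transcript in each of the 6 libraries, as numbers stacked by class of later annotation (left) and as the percentage of each class (right). Control 1, control 2 and heat shock 3 listed the most members, while members in an exon of the same gene were listed at 50.3% and 57.1% in heat shock 1 and 2.

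An absent value was not a measurement of no RNA. Among single-exon transcripts without strand of 301 to 600 nt in the assemblies, the lowest value listed was 0.898, 0.700 and 1.71 FPKM in control 1, 2 and 3 and 1.22, 1.34 and 1.04 FPKM in heat shock 1, 2 and 3. No such transcript was listed below these values, although a member that a transcript covered only in part could have a lower value. Since read counts are absent from these values, no interval or limit for counting error is given.

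The libraries also differed in scale. Over 1062 named genes above 10 FPKM in every library, the common factor of a library was 0.936, 0.439 and 0.959 in control 1, 2 and 3, and 2.13, 2.30 and 0.488 in heat shock 1, 2 and 3. HSPA8, which encodes the constitutive Hsc70 chaperone, stood at 93.8, 43.5 and 89.6 FPKM in the controls and at 256, 298 and 58.9 FPKM in the heat shock libraries, in nearly the same order of libraries as the factor. Division by these factors moved the median log2 fold change of the 15373 features tested as deposited, given later, from 0.44 to -0.20. It also brought more features over the minimum mean, and over the 21876 features then tested the median was -0.34. In these bulk samples fewer cells with a transcript and less of it in each cell cannot be told apart.

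GENCODE release 44 on GRCh37, an annotation made after the one used for the assemblies, names more transcripts and longer 3′ ends. It placed an exon of the same named gene in 543 members (9.25%), 478 of them in a UTR of that gene. Any overlap with an exon counted, however short. An exon of another gene, on either strand, overlapped 882 members (15.0%), and the genes there were of the classes lncRNA for 524 members, protein coding for 233 and pseudogene for 194, a member with several being counted under each. No exon overlapped the remaining 4445 members (75.7%). Among upstream loci 5.62% lay in an exon of the nearest gene, and among far loci 0.746% did. The share of members in an exon of the same gene was 4.81% in the first 0.5 kb, 15.0% from 2 to 4 kb and 4.95% from 8 to 10 kb.

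The classes differed in the letters at their ends. AATAAA, searched on the gene strand, lay within the last 50 bases of 74 of the 543 members in an exon of the same gene (13.6%). Anywhere in the member it was found in 70.2%, against 50.9% of all members. It lay within their first 50 bases in 3.13%, and within the last 50 bases on the other strand in 3.87%. Members with no exon held it in their last 50 bases in 148 of 4445 cases (3.33%) and in their first 50 bases in 2.52%. Over all members the share was 4.29%, against 2.87% of upstream loci and 3.02% of far loci. Such a match is a match of letters and not a mapped cleavage site.

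**Figure D3:**
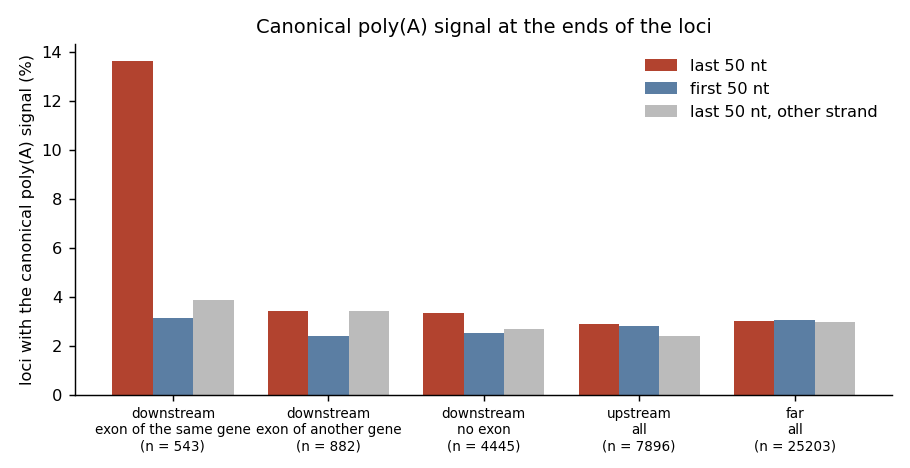
Percentage of loci with AATAAA on the gene strand in the last 50 nt (red) or first 50 nt (blue), or on the other strand in the last 50 nt (grey), for the 3 classes of members and for all upstream and far loci. The last 50 nt of members in an exon of the same gene stood at 13.6%, and every other bar lay below 4%.

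The classes also differed in level. Members in an exon of the same gene had mean values of 1.48, 0.816 and 1.03 FPKM in control 1, 2 and 3 and of 3.42, 4.02 and 0.723 FPKM in heat shock 1, 2 and 3, with those not listed counted as 0. Heat shock 1 and 2 were the highest of the 6 libraries and heat shock 3 the lowest, so the groups overlapped. After division by the common factor the means were 1.58, 1.86 and 1.07 FPKM in the controls and 1.61, 1.75 and 1.48 FPKM in the heat shock libraries, and the heat shock means lay within the range of the controls. Members with no exon had means of 0.798, 0.840 and 0.241 FPKM in control 1, 2 and 3 and of 0.473, 0.541 and 0.577 FPKM in heat shock 1, 2 and 3. Divided by the factor, these became 0.853, 1.91 and 0.251 FPKM in the controls and 0.223, 0.235 and 1.18 FPKM in the heat shock libraries, where control 1, control 2 and heat shock 3 were the 3 highest.

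**Figure D4:**
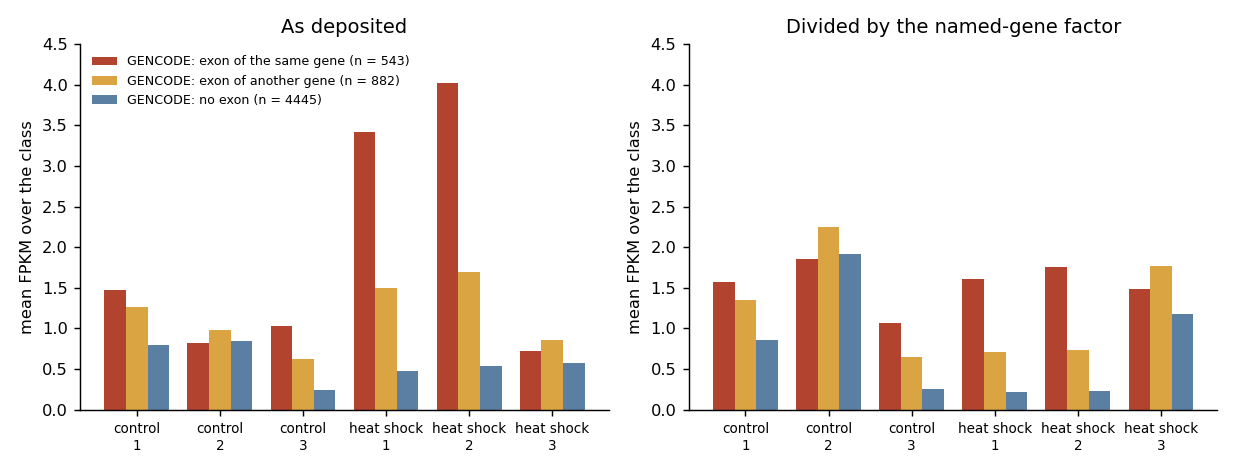
Mean FPKM per library over the members of each class of later annotation, as deposited (left) and divided by the factor of each library over named genes (right), with members not listed counted as 0. Bars are means over members and carry no error bar. The high bars of heat shock 1 and 2 for members in an exon of the same gene, at 3.42 and 4.02 FPKM, came to 1.61 and 1.75 FPKM after division.

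In heat shock 1 and 2 a few members made up a larger share of the summed level than in the other libraries. The 10 members with the highest mean made up 23.8% and 21.3% of the summed FPKM of all members in those libraries, 11% in control 3, and 3.97% to 4.89% in the other 3. The highest member lay 2999 nt past XRRA1, a gene named for its link to X-ray resistance, at chr11:74456352-74456913. It stood at 49.1, 82.7 and 40.8 FPKM in the controls and at 551, 510 and 32.0 FPKM in heat shock 1, 2 and 3. Heat shock 3 was lower than every control, so the groups overlapped. The member overlaps a processed pseudogene of the annotation, whose transcripts hold 23.1% of its 31-base words. Of all 31-base words of the member, 8.08% also occur in transcripts of RPS12. Reads of that messenger and of the member therefore cannot be fully told apart.

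The member 3134 nt past MCTP2, which encodes a calcium-binding membrane protein, lay at chr15:95030316-95030701 outside exons but inside an annotated gene body. Its values were 118, 45.6 and 26.4 FPKM in the controls and 341, 355 and 12 FPKM in the heat shock libraries. Heat shock 3 was again the lowest library. Of its 31-base words 9.83% occur in transcripts of RPL4, which encodes another ribosomal protein. The MCTP2 gene itself was at 0.0320 to 1.33 FPKM, so the locus was far above the gene it follows in every library.

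The member past UBXN7, an adaptor of the p97 ATPase in protein degradation, was the highest one in a UTR of its own gene. It covers chr3:196074530-196075393, 4975 nt from the assembled end of the gene, and none of its 31-base words occurs elsewhere in the genome. Its values were 43.7, 20.1 and 15.8 FPKM in the controls and 120, 124 and 29.9 FPKM after heat shock. Heat shock 3 lay within the range of the controls. The fitted log2 fold change was 1.63 ± 0.90 (SE, n = 3 and 3) and became 0.78 with the common factor removed. The AATAAA shown above for this member lies near its downstream end.

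ZNF121, a zinc finger gene, was followed at 2976 nt by a member in its own UTR, at chr19:9672692-9673251. This member had 9.10, 4.14 and 10.7 FPKM in the controls and 63.7, 27.6 and 42.1 FPKM after heat shock, and the groups did not overlap. The log2 fold change was 2.34 ± 0.74 (SE, n = 3 and 3) and did not pass the test (limma, Benjamini-Hochberg adjusted p = 0.706). Copies elsewhere in the genome account for 45.8% of its 31-base words. The gene was also higher in every heat shock library, at 5.18, 1.77 and 3.74 FPKM in the controls and 10.1, 8.0 and 24.4 FPKM after heat shock.

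The other 6 of the 10 highest members had overlapping groups. A member past LINC00273, a long non-coding RNA gene, had 16.3, 21.0 and 20.6 FPKM in the controls and 53.0, 15.9 and 17.8 FPKM after heat shock. The member past MRPL42P5, which overlaps the U6 snRNA copy RNU6-516P, had 3.33, 0 and 14.3 FPKM in the controls and 46.3, 78.1 and 0 FPKM after heat shock. The one past HSDL2, a peroxisomal dehydrogenase gene, had 20.3, 7.16 and 19.9 FPKM in the controls and 56.4, 24.3 and 10.3 FPKM after heat shock. In each of these, a heat shock library fell within or below the range of the controls. The member past ZNF460 lay in a lncRNA exon and was higher in 2 controls, with 0, 38.7 and 62.7 FPKM against 11.6, 10.9 and 0 FPKM after heat shock. The authors' pooled values for this member went the other way, at 7.73 FPKM in control and 23.1 FPKM after heat shock. The one past the histone genes HIST1H2BJ and HIST1H2BK, in an exon that GENCODE gives to H2BC11, had 1.62, 0 and 0 FPKM in the controls and 2.13, 110 and 0 FPKM after heat shock, so its mean rests on heat shock 2. The one past C21orf37 had 5.33, 17.1 and 27.9 FPKM in the controls and 12.5, 38.7 and 3.52 FPKM after heat shock.

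**Figure D5:**
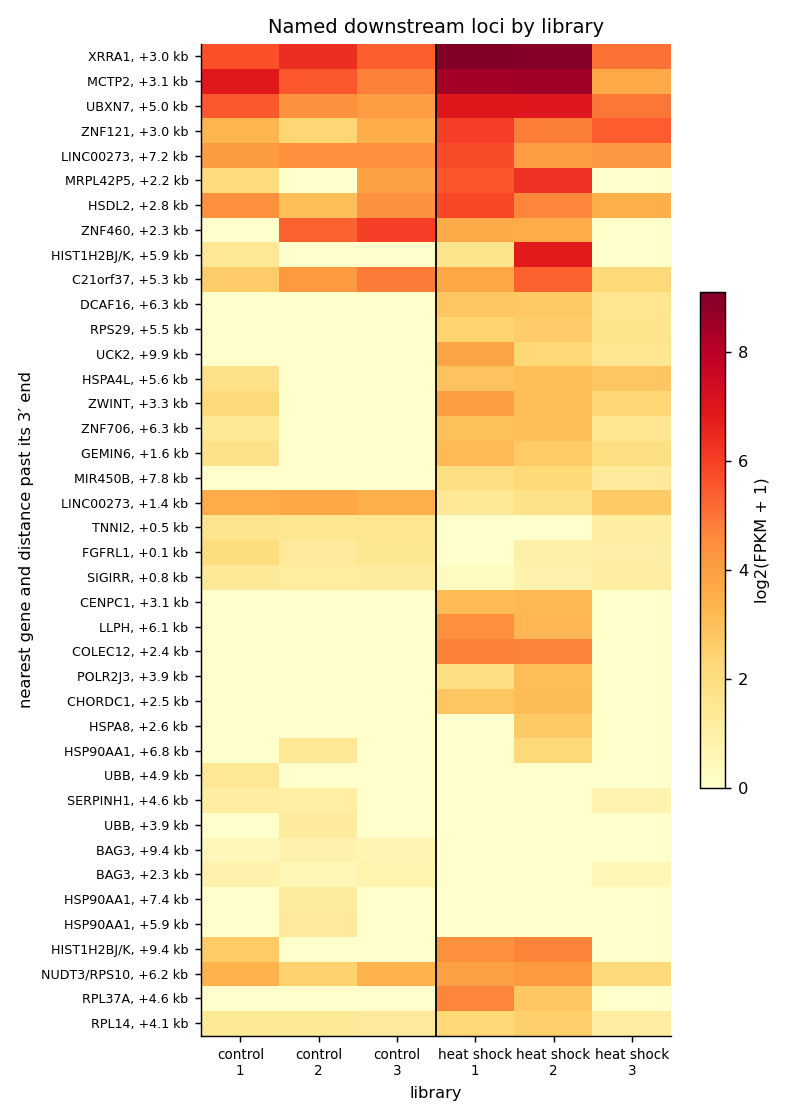
Heat map of log2(FPKM + 1) of named members in the 6 libraries, 1 row per member with its nearest gene and the distance past its 3′ end in kb, controls left of the line. Heat shock 1 and 2 are the darkest columns in many rows, and heat shock 3 is pale in most of those.

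Heat shock and control libraries were compared by a limma fit on log2(FPKM + 1) over 15373 features with a mean of at least 1 FPKM, made up of named genes and unnamed loci. Of the 5870 members, 778 reached that mean, and a member that reached it through the group in which it was high had to differ, so the counts over these 778 only describe them. None was called at an adjusted p under 0.05 with a change of more than 2-fold, higher or lower. Over all features the same rule called 0.013% higher and 0.0065% lower. The smallest adjusted p among members was 0.706 (limma, Benjamini-Hochberg). At an unadjusted p under 0.05 with the same fold, 101 members (13.0%) were higher and 3 lower, beside 2.97% and 1.04% of all features. The same rule gave 49 of 614 upstream loci (7.98%) and 90 of 1136 far loci (7.92%) higher, and 4 and 10 lower. Of 12679 named genes it gave 217 higher and 143 lower. Groups did not overlap in 27 members that were higher after heat shock and in 5 that were lower, beside 3.62% and 2.11% of all features. The median log2 fold change of the 778 members was 0.64, against 0.44 over all features, 0.14 over upstream and 0.28 over far loci. Of the 778, 556 (71.5%) had a positive value, as did 71.7% of all features. With the common factor removed, the median of the same 778 members was 0.07, beside -0.20 over the same 15373 features. Over the 1451 members that reached the minimum mean after division, it was -0.44. By the same unadjusted rule, division left 13 of these 1451 members higher and 9 lower, while over all features 104 were higher and 283 lower. Leaving out 1 library in turn gave 27 to 334 members higher and 1 to 48 lower, of 749 to 877 tested. The highest counts in each direction came without heat shock 3. In that fit the median log2 fold change was 1.30 over members, 0.86 over named genes, 0.75 over upstream and 0.67 over far loci. The share of all features is not given for these leave-out counts, so they are no result about the members.

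Position and length went along with this value. The median log2 fold change of the tested members was -0.55 in the first 0.5 kb (126 tested), 0.61 from 1 to 2 kb (47 tested) and 0.96 from 2 to 4 kb (283 tested). By length it was 1.12 among members of 301 to 500 nt and -0.65 among those over 5000 nt. By class it was 0.95 for the 254 tested members in an exon of the same gene, 0.35 for the 173 in an exon of another gene and 0.52 for the 351 with no exon. The members closest to genes were also the longest, and position and length were not separated here. Upstream loci changed in a similar way, with medians of -0.42 in the first 0.5 kb, 0.76 from 1 to 2 kb and 0.66 from 2 to 4 kb. By length the upstream medians were 0.98 at 301 to 500 nt and -0.59 over 5000 nt.

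The members named next had groups that did not overlap and the smallest unadjusted p-values, and none was called. Among those higher after heat shock, the member past DCAF16, which encodes a substrate receptor of a ubiquitin ligase, lay 6342 nt past the gene. It was listed at 0 in all 3 controls and had 6.32, 5.72 and 2.01 FPKM in heat shock 1, 2 and 3. The gene had 4.92, 2.45 and 4.51 FPKM in the controls and 10.5, 10.9 and 2.74 FPKM after heat shock. The locus thus stood at 60.2%, 52.5% and 73.5% of the gene in the 3 heat shock libraries. The authors' pooled values for the locus were 1.05 FPKM in control and 12.1 FPKM after heat shock, so their pooled quantification put some RNA there in the controls.

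The member past UCK2, a kinase of uridine and cytidine, lay 9874 nt past the gene at chr1:165891574-165892440. It was listed at 0 in the controls and had 13.3, 3.84 and 1.98 FPKM after heat shock, while the gene had 8.13, 3.39 and 12 FPKM in the controls and 16.1, 16.6 and 3.71 FPKM after heat shock. Heat shock 1 was the highest library for the locus and not for the gene. The member past ZWINT, a kinetochore protein gene, at chr10:58113401-58113926, had 3.47, 0 and 0 FPKM in the controls and 15.0, 7.14 and 3.94 FPKM after heat shock, a log2 fold change of 2.39 ± 0.67 (SE, n = 3 and 3). Its lowest heat shock value was close to its highest control value. After division by the common factor the groups overlapped, at 3.71 FPKM in control 1 and 3.11 FPKM in heat shock 2.

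HSPA4L encodes a chaperone of the Hsp110 family. The member 5647 nt past it, at chr4:128761407-128762137, lies in the UTR of HSPA4L by the later annotation and also overlaps an antisense lncRNA. Its values were 2.46, 0 and 0 FPKM in the controls and 6.45, 7.28 and 6.21 FPKM after heat shock, a log2 fold change of 2.34 ± 0.54 (SE, n = 3 and 3). The 3 heat shock values were within a narrow range, although the gene itself had only 1.10 FPKM in heat shock 3 against 6.39 and 4.88 FPKM in the others. Removal of the common factor left the log2 fold change at 2.0. The values were then 2.62, 0 and 0 FPKM in the controls and 3.03, 3.17 and 12.7 FPKM after heat shock. As a percentage of the gene the groups overlapped, at 130% in control 1 and 101% in heat shock 1.

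RPS29, a ribosomal protein gene, was followed at 5519 nt by a member in its own annotated UTR. It was listed at 0 in the controls and had 4.27, 5.25 and 2.18 FPKM after heat shock, which was 0.0484%, 0.0528% and 0.113% of the level of the gene. The member past GEMIN6, a subunit of the SMN complex that assembles snRNPs, also lay in an exon of its gene and had 2.32, 0 and 0 FPKM in the controls and 8.0, 5.52 and 2.83 FPKM after heat shock. The member past ZNF706, outside exons, had 1.58, 0 and 0 FPKM in the controls and 7.11, 7.36 and 1.85 FPKM after heat shock. In these 3 members heat shock 3 was the lowest heat shock library. After division by the common factor the groups of the GEMIN6 member overlapped, at 2.48 FPKM in control 1 and 2.40 FPKM in heat shock 2. The member past the microRNA gene MIR450B was listed at 0 in the controls and had 2.77, 3.65 and 1.44 FPKM after heat shock, and its gene was listed at 0 throughout.

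The 4 named loci that follow were, as deposited, lower in every heat shock library than in every control library. The locus past LINC00273 at chr16:33954263-33959649 stood in 2 rows of the table with the same coordinates. It had 10.9, 12.5 and 10.3 FPKM in the controls and 1.71, 2.32 and 5.56 FPKM after heat shock, a log2 fold change of -1.65 ± 0.56 (SE, n = 3 and 3). Of its 31-base words 39.1% occur elsewhere in the genome. The member past TNNI2, a muscle troponin gene listed at 0 here, had 2.07, 1.83 and 1.90 FPKM in the controls and 0, 0 and 1.16 FPKM after heat shock. The member past FGFRL1, a receptor for fibroblast growth factors that lacks the kinase domain, began 111 nt from the gene and had 3.15, 1.44 and 1.79 FPKM in the controls and 0, 0.907 and 0.952 FPKM after heat shock. The one past SIGIRR, an inhibitory receptor of the interleukin-1 family, overlaps an exon of PKP3 and had 1.51, 1.22 and 1.31 FPKM in the controls and 0.224, 0.769 and 1.14 FPKM after heat shock. Heat shock 3 came closest to the controls in all of them. After division by the common factor the groups overlapped in all 4. Heat shock 3 then stood at 11.4, 2.37, 1.95 and 2.34 FPKM, in the same order. The lowest control then stood at 10.7, 1.98, 1.87 and 1.37 FPKM.

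The ratio of a member to its gene within a library reduces a factor common to the library. It does not remove it at low values, because 1 FPKM is added to both sides and a member listed at 0 leaves only the gene. It was fitted with limma on log2 of (locus FPKM + 1) over (gene FPKM + 1) for 1710 pairs of an unnamed locus and its nearest gene, of which 626 were members. No pair was called either way (0%). At an unadjusted p under 0.05 with a 2-fold change, 21 members were higher and 5 lower relative to the gene, beside 3.22% of all pairs higher and 1.4% lower. Groups did not overlap in 44 members that were higher and 17 that were lower, beside 5.91% and 3.63% of all pairs. The counts at unadjusted p were 4 to 74 higher and 4 to 43 lower with 1 library left out in turn (596 to 708 tested). The highest in each direction came without heat shock 3, and with no minimum 129 were higher and 156 lower (5197 tested). The share of all pairs is not given for these alternative counts, so they are no result about the members. The median log2 change of the ratio was 0.14 over members, 0.02 over all pairs, -0.18 over upstream and 0.08 over far pairs. It was 0.30 for the 205 members in an exon of the same gene and 0.05 for the 291 with no exon.

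In the fit of the ratio, DCAF16 and UCK2 were again among the 6 members named as higher, and the other 4 were listed only in heat shock 1 and 2. The member past CENPC1, which encodes centromere protein C, lay in its UTR and had 7.86 and 8.35 FPKM in heat shock 1 and 2 and was listed at 0 in the other 4 libraries. The member past LLPH, a gene of ribosome biogenesis, also lay in its UTR and had 20.6 and 8.53 FPKM in heat shock 1 and 2. The one past COLEC12, a scavenger receptor gene, in an exon of that gene, had 26.1 and 25.5 FPKM in heat shock 1 and 2, while the gene stood at 2.18 and 2.82 FPKM there. All 3 were listed at 0 in heat shock 3 and in the controls. The member past POLR2J3, a copy of an RNA polymerase II subunit gene, had 2.76 and 7.36 FPKM in heat shock 1 and 2, and 95.6% of its 31-base words occur elsewhere in the genome.

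Members lower relative to their gene included one 51 nt past SHC2, a signalling adaptor gene, with 2.24, 1.78 and 2.54 FPKM in the controls and 0, 0 and 1.91 FPKM after heat shock. Its pooled values were not lower after heat shock, at 2.74 FPKM in control and 3.40 FPKM in heat shock. The SHC2 gene had 2.03, 2.21 and 2.62 FPKM in the controls and 3.67, 4.84 and 7.04 FPKM after heat shock, higher in every heat shock library. The log2 change of the ratio was -2.03 ± 0.58 (SE, n = 3 and 3; limma, Benjamini-Hochberg adjusted p = 0.755). The member past PHTF1 had 1.72, 1.77 and 1.52 FPKM in the controls and 4.58, 4.19 and 0 FPKM after heat shock, and its share of the gene went from 72.3%, 65.0% and 50.4% to 37.4%, 29.7% and 0%. The others named by the rule lay past TTC12, MICALL2, MORF4L1 and ENSA, with log2 changes of the ratio of -2.64, -1.16, -1.16 and -1.07. The TTC12 member was listed in control 1 alone, at 7.09 FPKM, and its change rests on the gene, which reached 74.1 FPKM in heat shock 2. The pooled values of the TTC12 member were 4.18 FPKM in control and 5.79 FPKM in heat shock.

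The libraries that stood apart weighed on these counts. Without heat shock 3, 79 of 800 members tested (9.88%) were called higher and 2 lower by limma, beside 1.64% of all 15339 features higher and 0.424% lower. The same fit called 5.67% of upstream loci, 6.18% of far loci and 0.509% of named genes higher. Of the 79 members, 74 were listed in no control library and 74 were not listed in heat shock 3, so for most of them the call sets values in heat shock 1 and 2 against 0 in the controls. They lay past 78 genes, had a median length of 471 nt, and 33 (41.8%) were in an exon of the same gene, beside 33.9% of the 800 tested. With the named-gene factors removed as well, 1 of 1136 members tested was called higher and none lower.

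The smallest adjusted p-values of the fit without heat shock 3 belonged to COLEC12, given above, and to AKAP5, which encodes an anchor of protein kinase A. The member past AKAP5 had 18.1 and 21.8 FPKM in heat shock 1 and 2. PPP1R15B, which encodes a subunit of the phosphatase that reverses the stress-induced block of translation, was followed at 7102 nt by a member with 9.41 and 11.9 FPKM in heat shock 1 and 2. The members past ZNF720, CPOX, BCAS2, HSD17B12 and TAS2R5 had 7.90 to 14.4 FPKM in these libraries and lay outside exons. All 8 of these members were listed at 0 in the 3 controls and in heat shock 3. They were named after their values were seen.

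A list of heat shock genes held HSF1 and HSF2, ubiquitin genes and the main chaperones and co-chaperones, but not HSPA4L, whose member is given above and was higher in all 3 heat shock libraries. Of the listed genes, 6 had members, 10 in all, and 1 of these members reached the minimum mean. CHORDC1 encodes a co-chaperone of Hsp90, and the member 2491 nt past it had 6.21 and 7.59 FPKM in heat shock 1 and 2 and was listed at 0 in the other 4 libraries. This was 95.7% and 94.6% of the level of the gene. The member past HSPA8 was listed in heat shock 2 alone, at 5.63 FPKM, 1.89% of the gene. Of 3 members past HSP90AA1, which encodes the inducible Hsp90, 1 had 1.72 FPKM in control 2 and 3.55 FPKM in heat shock 2, and the other two were listed in control 2 alone, at 1.29 and 1.47 FPKM.

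The rest of the heat shock gene members were listed mainly in controls. Those past UBB, a polyubiquitin gene, were listed in control 1 alone at 1.63 FPKM and in control 2 alone at 1.35 FPKM. UBB itself had 3448, 1956 and 378 FPKM in heat shock 1, 2 and 3 against 245 to 545 FPKM in the controls, so its groups overlapped. The 2 members past BAG3, a co-chaperone gene of Hsp70, had 0.388 to 0.789 FPKM in the controls and a single heat shock value above 0, of 0.421 FPKM in heat shock 3. The member past SERPINH1, the collagen chaperone gene, had 1.18 and 1.07 FPKM in control 1 and 2 and 0.679 FPKM in heat shock 3. Over the 10 members, 4, 7 and 2 were listed in control 1, 2 and 3 and 1, 3 and 2 in heat shock 1, 2 and 3.

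Replication-dependent histone messengers end in a stem-loop without a poly(A) tail, and 3 members lay past such genes. Beside the one in the H2BC11 exon, the member 9378 nt past the HIST1H2BJ and HIST1H2BK locus had 5.41, 0 and 0 FPKM in the controls and 20.8, 25.5 and 0 FPKM after heat shock. The member past HIST1H3E lay in an exon that GENCODE gives to the same gene, under the name H3C6, and was listed in heat shock 1 alone, at 2.17 FPKM. Genes of the snRNA list had 1 member, past RNU11, listed in control 1 at 1.57 FPKM and in heat shock 3 at 2.02 FPKM. None of these 4 members was listed in control 2 or 3.

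Ribosomal protein genes had 40 members at 23 genes, of which 7 lay in an exon of the same gene and 10 reached the minimum mean. All 10 had a positive log2 fold change as deposited, as did 71.7% of all features and 71.5% of all members tested. At an unadjusted p under 0.05 with a 2-fold change 2 were higher, beside the 2.97% of all features given above. The member past the locus of NUDT3 and RPS10 lay in a UTR of NUDT3 and had 9.65, 4.60 and 9.64 FPKM in the controls and 14.7, 17.0 and 3.45 FPKM after heat shock. The member past RPL37A was listed in heat shock 1 and 2 alone, at 24.4 and 5.92 FPKM. The one past RPL14, in a UTR of that gene, had 1.59, 1.5 and 1.45 FPKM in the controls and 3.83, 4.86 and 1.12 FPKM after heat shock. Heat shock 3 was the lowest library for the first and the last of these. With the common factor removed, the log2 fold changes were -0.47 past NUDT3 and RPS10, 1.83 past RPL37A and -0.02 past RPL14.

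Of the 5 longest members, 4 were lowest in heat shock 1 and 2. The longest, of 129284 nt, began 192 nt past SCARB1, a receptor gene for high-density lipoprotein, and had 2.09, 1.54 and 0.892 FPKM in the controls and 0, 0.0550 and 2.13 FPKM after heat shock. The member of 77220 nt past SIK1, a salt-inducible kinase gene, had 2.84, 1.95 and 1.65 FPKM in the controls and 0.0173, 0.549 and 2.52 FPKM after heat shock. Both were near 0 in heat shock 1 and close to control 1 in heat shock 3. The members past SGPL1 and C9orf62, of 67461 and 65636 nt, were listed at 0 in heat shock 1 and at 1.44 and 1.92 FPKM in heat shock 3. The member of 92897 nt past FOXN3-AS2 overlaps RN7SK pseudogenes and a Y RNA and had 14.0, 4.48 and 9.83 FPKM in the controls and 11.8, 22.2 and 5.53 FPKM after heat shock.

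Many members shared sequence with other places in the genome, where reads may be placed in either copy. The median share of 31-base words found elsewhere was 10.7%. It was over 50% in 355 members (6.05%), and 1482 members (25.2%) shared none. The median was 1.92% in members in an exon of the same gene and 11.9% in those with no exon.

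Genes of 3′ end processing and termination were read from the first fit with a list of 51 genes, which hold the cleavage and polyadenylation factors, the exonuclease XRN2, the Integrator complex and kinases of RNA polymerase II. All 51 were tested, and 45 of the 51 loci had a positive log2 fold change, beside 71.7% of all features, with a median of 0.56 beside 0.44 over all features. None was called by limma, and 1 was higher and none lower at an unadjusted p under 0.05 with a 2-fold change, beside 2.97% and 1.04% of all features. With the common factor removed the median of these loci was -0.15, beside the -0.20 over the same features given above.

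WDR33, the subunit that binds the poly(A) signal, was that gene. It had 7.08, 4.80 and 5.41 FPKM in the controls and 22.1, 301 and 41.5 FPKM after heat shock, a log2 fold change of 3.31 ± 0.97 (SE, n = 3 and 3; limma, Benjamini-Hochberg adjusted p = 0.706). All heat shock libraries lay above all controls, and they differed widely among themselves. CPSF1 and CPSF3, the latter the endonuclease of the cleavage complex, came next with log2 fold changes of 1.97 and 1.54, with heat shock 3 at 2.52 and 6.30 FPKM within or below the control range. The lowest values were -0.80 for CDK9, the kinase of the elongation factor P-TEFb, -0.36 for the locus of SYMPK, the scaffold of the complex, and -0.19 for CSTF2, which binds the region beyond the cleavage site. The CDK9 locus had 33.8, 1.73 and 1.48 FPKM in the controls and 2.79, 2.53 and 2.34 FPKM after heat shock. CSTF2 had 7.82, 8.38 and 58.1 FPKM in the controls and 18.3, 16.2 and 8.83 FPKM after heat shock. The CDK9 value thus rests on control 1 and the CSTF2 value on control 3.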

How the data were processed

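The authors used FastQC 0.10.1 and Trimmomatic 0.3.0 for quality control, TopHat2 for alignment to hg19, Cufflinks 2.0.2 for an assembly of every library and Cuffdiff for the groups. The deposited values are FPKM of each transcript per library and 1 pooled FPKM per group and merged locus. No scaling between libraries is stated. The fold changes, p-values and q-values of the authors' comparison were not used. No column of another sample was present (0).

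The strand of a named locus was taken from its annotated transcripts, and 480 of 24030 named loci held both strands. Loci beside these were left out. A member's FPKM in a library was the sum over transcripts of FPKM times the exonic bases inside the member, divided by its length. The FPKM of a gene was summed over its annotated transcripts and those grouped with them. Features whose mean reached 1 FPKM entered a fit on log2(FPKM + 1), a scale that understates changes of low values. The fit used limma 3.58.1 in R 4.3.3 (lmFit, eBayes, with a trend for loci and genes) and Benjamini-Hochberg adjustment over all features. A call needed an adjusted p under 0.05 and a 2-fold change. The scripts were tested on simulated data. The sequence of 1 named member is not reported here. Other tables were made in Python 3.11.15. Exons were those of GENCODE release 44 on GRCh37, where 94.5% of the members had their gene. Words of 31 bases were searched in the GRCh37 genome and the GENCODE transcripts.

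The files hold no read counts. The ratio of coverage to FPKM, which tracks depth, spanned 1 to 2.03 relative to the lowest library, and counting error is unknown. Samples were grouped by their labels. The members and gene lists were chosen with earlier results of these data known. Members were named by rule, as the 10 highest by mean, those with non-overlapping groups and the smallest p in each fit (up to 8 and up to 6 in each direction), those past heat shock genes, the 3 highest past histone, snRNA and ribosomal protein genes, the 5 longest, and those at the limits, and pathway genes as the 3 largest changes each way. Alternatives were another pseudocount, scalings, minimum values, distances, value definitions, trend settings, a replicate block and each library left out. A term for the 3 libraries that list most loci, the named-gene factors together with leaving out heat shock 3, and those factors over the members tested as deposited were added after seeing the data.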

Additional observations from a re-analysis of the deposited data

How the results depend on the processing

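By limma with Benjamini-Hochberg adjustment, leaving out 1 library gave 0 to 79 members called higher and 0 to 2 called lower, and the nonzero counts came without heat shock 3. Named-gene factors with heat shock 3 left out gave 1 higher of 1136 tested. For the ratio, 1 member was called lower with no minimum, and leaving out any 1 library called 0. Among the 3′ end processing genes, leaving out 1 library gave 0 to 1 called higher, the call again without heat shock 3. The cause was not tested. A term for the 3 libraries that list most loci called no member.

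The median log2 fold change of tested members, 0.64, was 0.11 to 1.30 with 1 library left out. It was -0.38 over members with no minimum, 0.07 with median-of-ratios factors, 0.07 with named-gene size factors over the same members, -0.44 with those factors over the members that then reached the minimum, -0.90 with those factors and without heat shock 3, -0.65 with the sum over transcripts that lie at least 50% inside, and -0.50 within 1 kb, so its sign too rests on these choices. The median log2 change of the ratio, 0.14, was -0.03 to 0.25 with 1 library left out, 0.43 with a pseudocount of 0.1, -0.29 with no minimum, -0.65 with the sum over transcripts and -0.54 within 1 kb, so the same holds for it. At an unadjusted p under 0.05 with a 2-fold change, the 101 members higher became 104, 49 and 57 without control 1, 2 and 3 and 28, 27 and 334 without heat shock 1, 2 and 3. The balance turned to 68 higher and 112 lower of 2203 tested with the sum over transcripts. It turned to 77 and 168 of 1136 tested with named-gene factors and without heat shock 3. With no minimum it was 187 and 22 of 5439 tested. The share over all features is not given for these counts. For the ratio the 21 higher became 5, 16 and 9 without control 1, 2 and 3 and 4, 7 and 74 without heat shock 1, 2 and 3. Named-gene factors gave 43 higher and 8 lower of 1208 tested. The sum over transcripts gave 17 higher and 62 lower ratios of 1763 tested. The share of all pairs is not given for these ratio counts. Of 596 values of 43 named members under the alternatives, 535 moved by less than the spread between replicates or kept their side of the threshold, and 61 moved.

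With the replicate number as a block, 6 of 778 members (0.771%) were called higher, beside 44 of 15373 features (0.286%), and all 6 were among the 79 called without heat shock 3, and the block changed no other count of calls among members or 3′ end processing genes. The replicate numbers did not pair the samples, since the correlations of same-numbered libraries' deviations were 0.07, -0.32 and -0.33, and 1 of the 3 pairs correlated best with its own number.

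In single-exon transcripts without strand of 301 to 600 nt, no level below 0.700 to 1.71 FPKM, depending on the library, was listed. A value of 0 stood for no assembled transcript. With 3 libraries a group, of which heat shock 3 resembled the controls 1 and 2 in its assembly, a change of members after heat shock could not be separated from that difference.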
